A study of Homo sapiens with 6 samples.

Results

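Fibronectin (FN1), tenascin-C (TNC), SPARC, the thrombospondins THBS1, THBS2 and THBS3, osteopontin (SPP1) and periostin (POSTN) were followed in RNA sequencing of SKOV3, a human ovarian carcinoma cell line. The genes were chosen by symbol, as fibronectin and proteins of the matricellular class, and their Ensembl IDs picked 8 rows out of the 60664 genes of the deposited count table. The rule uses no measured value, but the members and the gene lists were chosen with earlier results of these data known. In 3 cultures JUP, which encodes the junction protein plakoglobin, was knocked down with a short hairpin RNA (shJUP 1 to 3), and 3 cultures of the same line carried a control hairpin (shNC 1 to 3, genotype WT in the labels). The labels call the replicates independent biological ones and do not give the hairpin sequence, the number of hairpins or what a library number stands for. Lower JUP and any other effect of the hairpin therefore cannot be told apart. Library totals ran from 17456121 to 19279514 estimated counts.

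Fibronectin is a dimeric glycoprotein that cells assemble into fibrils through integrins, and it forms a scaffold for other matrix proteins. Matricellular proteins are secreted into the matrix but serve less as structure than as modulators: they bind integrins and other receptors, collagens, proteases and growth factors, and loosen or strengthen adhesion. In ovarian carcinoma, tumour cells that detach into the abdominal cavity attach to a fibronectin-rich peritoneal surface, and several of these proteins are made by the stroma as well as by tumour cells.

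The libraries of a group were far from alike for these genes, which has to be known before any comparison. JUP stood at 39.9, 93.4 and 24.6 CPM (counts scaled to a common library size after TMM) in shJUP 1, 2 and 3, against 104, 132 and 101 CPM in shNC 1, 2 and 3, and shJUP 2 was the least depleted, at 0.705 of shNC 2. The log2 fold change of JUP, shJUP over shNC, was -1.10 (SE 0.44, edgeR adjusted p = 0.471), although no shJUP library overlapped a control. With the library number as a block DESeq2 called JUP lower (log2 -1.30, adjusted p = 0.043) and edgeR did not (adjusted p = 0.12). Without both number-2 libraries JUP was at -1.66, which missed the edgeR threshold (adjusted p = 0.051) and passed DESeq2 (adjusted p = 2.4e-10). It was at -1.80 without shJUP 2 alone. Since shJUP 2 held the most JUP of the knockdowns, leaving it out lowers the value by construction and is no separate support. Among the controls, shNC 2 stood apart: the chi-square per gene between it and shNC 1 or shNC 3 was 60.9 and 49.0, against 10.1 between shNC 1 and shNC 3. Between shJUP libraries it was 26.7 to 44.7. The carcinoma markers PAX8, KRT8, KRT18, KRT19 and ERBB2 were present in every library, whereas EPCAM had only 27 to 79 counts in shJUP and 23 to 87 counts in shNC, and MUC16 had at most 12 counts. In any library, 1 CPM was reached by 1 of 11 markers of leukocytes and by 7 of 10 markers of fibroblasts, and the values of the fibroblast markers are given below beside the genes they moved with.

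The stretches upstream of 5 of the genes are shown because these genes stood at opposite ends in shNC 2. FN1, SPP1 and POSTN were highest in that library, and THBS1 and TNC were lowest there. The grouping rests on that 1 library, and THBS3, also highest there, is not printed. All 8 genes had a window in RefSeq's table for GRCh38.p14 (9 windows, since THBS3 has a pair). Each window holds the 250 bases before the start, and only the longest stretch outside every GENCODE 29 exon of the gene is printed, 5′ to 3′ on the strand of the gene. All 250 bases of the SPARC window lie in annotated exon sequence, and none is printed. Capitals mark matches to the motifs named in the next paragraph, and neighbouring or overlapping matches run together. A match on the opposite strand shows as its reverse complement.
FN1 (chr2:215436173-215436318, minus strand): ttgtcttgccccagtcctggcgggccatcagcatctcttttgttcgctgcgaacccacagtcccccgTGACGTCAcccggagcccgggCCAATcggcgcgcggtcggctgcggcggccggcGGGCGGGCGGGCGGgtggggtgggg
SPP1 (chr4:87975464-87975649, plus strand): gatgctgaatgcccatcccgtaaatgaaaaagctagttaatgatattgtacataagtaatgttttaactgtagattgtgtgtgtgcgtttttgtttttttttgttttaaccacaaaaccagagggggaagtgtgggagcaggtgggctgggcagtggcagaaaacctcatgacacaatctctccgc
POSTN (chr13:37598845-37599018, minus strand): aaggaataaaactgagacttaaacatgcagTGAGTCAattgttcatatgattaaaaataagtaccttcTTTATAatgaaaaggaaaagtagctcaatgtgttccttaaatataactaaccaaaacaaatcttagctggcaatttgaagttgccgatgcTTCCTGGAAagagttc
THBS1 (chr15:39580829-39581078, plus strand): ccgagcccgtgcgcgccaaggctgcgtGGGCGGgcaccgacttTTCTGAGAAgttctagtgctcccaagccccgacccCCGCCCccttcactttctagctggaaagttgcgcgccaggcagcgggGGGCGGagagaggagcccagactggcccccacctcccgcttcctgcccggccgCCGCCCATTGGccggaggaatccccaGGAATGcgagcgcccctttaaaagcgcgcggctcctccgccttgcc
TNC (chr9:115118258-115118407, minus strand): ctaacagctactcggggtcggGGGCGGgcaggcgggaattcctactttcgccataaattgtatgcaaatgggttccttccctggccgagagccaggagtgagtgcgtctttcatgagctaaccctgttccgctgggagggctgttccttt

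Motifs were searched on both strands over the whole 250 bases, and shares are of all 35116 windows in the table. The cyclic AMP response element TGACGTCA was found in FN1 alone, from base -183 to base -176 counted back from the start, and 1.65% of all windows hold it. The GC box GGGCGG was found in FN1, TNC, THBS1 and the windows of THBS3 (42.6% of all windows), and the CCAAT box CCAAT in FN1, THBS1 and THBS3 (32.0%). The STAT motif TTCNNNGAA was found in THBS1 and POSTN (6.57%). The TATA box TATAAA was found in POSTN and THBS2 (10.7%), the AP-1 motif TGACTCA in POSTN (4.2%), and the TEAD motif GGAATG in SPARC, THBS1 and THBS2 (11.9%). The TCF/LEF motif CTTTGAT (2.26%), the SRF CArG box (1.16%) and the NF-kB site (6.88%) were in none of the 9 windows. SPP1 matched none of these motifs. The matches are letters in a window and were not tied to binding or to any level.

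With all 6 libraries no tested member was called between shJUP and shNC. The edgeR test called no gene at all, JUP included, so this says nothing particular about the members. FN1, SPARC, SPP1, THBS1 and TNC varied by 8.75-fold to 12.6-fold between the highest and the lowest of the 6 libraries, and by up to 11.6-fold among the 3 shNC libraries alone. Of the 8 genes 6 passed the filter on low counts and were tested with edgeR's quasi-likelihood test over 15867 genes. It called 0 of the 6, as it called 0.0% of all tested genes at an adjusted p of 0.05, and 10.0% of all tested genes had an unadjusted p under 0.05. DESeq2 called 0 of the 6 as well, where it called 204 genes in all (1.29%, of which 0.693% higher and 0.592% lower in shJUP). With the library number as a block, 0 of the 6 were called by edgeR, against 0.0063% of all tested genes, a single gene that was lower (0.0063%). DESeq2 with the block also called 0 of the 6, against 4.39% of all tested genes (1.95% higher, 2.44% lower). The groups overlapped for each of the 6 tested members and for both untested ones. Of all tested genes 17.0% had groups that did not overlap (8.37% higher, 8.66% lower). At that share, 0 among so few genes does not set the members apart.

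**Figure D1:**
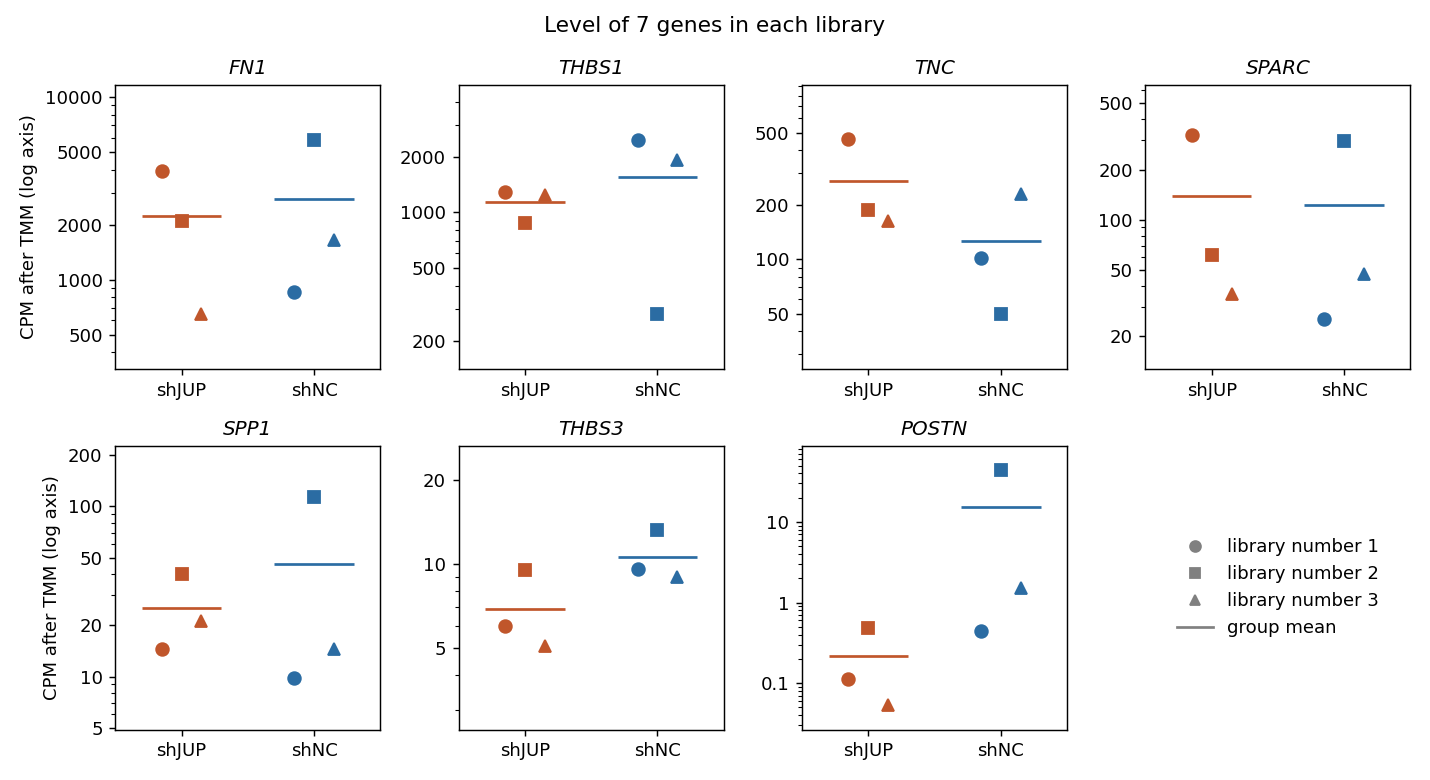
Level of 7 genes in each library, as CPM after TMM scaling on a log axis, with shJUP left of shNC. Symbols give the library number and lines the group mean (n = 3 each); the square of shNC 2 is highest for FN1, SPP1, THBS3 and POSTN and lowest for THBS1 and TNC. THBS2, with at most 3 counts in a library, is not drawn.

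FN1 (ENSG00000115414, chr2:215360440-215436172, minus strand in GENCODE 29 on GRCh38) encodes the fibril-forming glycoprotein itself. Its level was 3946, 2108 and 649 CPM in shJUP 1, 2 and 3, against 860, 5825 and 1643 CPM in shNC 1, 2 and 3. The highest library was a control and the lowest a knockdown, but shJUP 1 and shJUP 2 each lay above both of the remaining controls. Group means were 2234 ± 1652 CPM across shJUP and 2776 ± 2670 CPM across shNC (SD, n = 3 each). The log2 fold change, shJUP over shNC, was -0.31 (SE 0.80, edgeR adjusted p = 0.914). It turned to 0.84 (SE 0.67, edgeR adjusted p = 0.694) without shNC 2 and to 0.88 without both number-2 libraries.

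SPARC (ENSG00000113140, chr5:151661096-151687165, minus strand), also called osteonectin, binds collagen and takes part in its handling outside the cell. It stood at 321, 61.3 and 35.7 CPM in shJUP 1, 2 and 3, against 25.6, 294 and 47.2 CPM in shNC 1, 2 and 3. One library in each group, shJUP 1 and shNC 2, was high and the other 4 were low, and shJUP 1 and shNC 2 were also the highest of their groups for FN1. The means were 139 ± 158 CPM across shJUP and 122 ± 149 CPM across shNC (SD, n = 3 each), with a log2 fold change of 0.19 (SE 1.06, edgeR adjusted p = 0.965). Leaving out either high library moved it far: it was -1.33 without shJUP 1 (edgeR adjusted p = 0.805) and 1.94 without shNC 2 (edgeR adjusted p = 0.501). It was 2.30 without both number-2 libraries (edgeR adjusted p = 0.261). SPARC overlaps the antisense gene CLMAT3, which had at most 16 counts, and the strand setting of the counting is not known.

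The summed level of fibroblast markers was highest in the same libraries, through the collagens in shJUP 1 and through most of the list in shNC 2. The summed level of the 10 markers was 269, 49.8 and 12.8 CPM in shJUP 1, 2 and 3, against 45.1, 502 and 63.4 CPM in shNC 1, 2 and 3. COL1A1, a chain of fibrillar collagen I, made up most of that sum, with 252 CPM in shJUP 1 and 400 CPM in shNC 2. COL3A1 had 100, 3 and 1 counts in shJUP 1, 2 and 3, against 1, 866 and 11 counts in shNC 1, 2 and 3. The proteoglycan LUM had 22, 125 and 17 counts in shJUP, against 30, 292 and 81 counts in shNC, and DCN had 11, 110 and 14 counts in shJUP, against 10, 142 and 45 counts in shNC. All 10 markers were highest in shNC 2. In shJUP 1 the collagens COL1A1, COL1A2 and COL3A1 were higher than in the other shJUP libraries, while DCN, LUM, PDGFRA, FAP and ACTA2 were lower there than in shJUP 2. PDGFRB and THY1 had 1 to 6 counts in each library, and FAP 1 to 11. The part of the marker genes in the levels of FN1 and SPARC was not tested. In RNA from a whole culture, fewer cells that make a transcript and less of it per cell cannot be told apart.

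SPP1 (ENSG00000118785, chr4:87975650-87983426, plus strand) encodes osteopontin, a ligand of integrins and CD44. Its level was 14.5, 39.9 and 21.1 CPM in shJUP 1, 2 and 3, against 9.77, 113 and 14.6 CPM in shNC 1, 2 and 3. Both number-2 libraries were the highest of their group, and shNC 2 lay far above all others. The means were 25.2 ± 13 CPM across shJUP and 45.9 ± 58 CPM across shNC (SD, n = 3 each). The log2 fold change of -0.87 (SE 0.89, edgeR adjusted p = 0.759) became 1.05 (SE 0.43, edgeR adjusted p = 0.451) without shNC 2 and 0.55 without both number-2 libraries, and was -0.19 (SE 0.44) with the library number as a block.

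POSTN (ENSG00000133110, chr13:37562583-37598844, minus strand) encodes periostin, a matrix protein with fasciclin domains that binds integrins and other matrix proteins. Nearly all of its counts came from 1 control library. It had 2, 9 and 1 counts in shJUP 1, 2 and 3, against 8, 832 and 28 counts in shNC 1, 2 and 3. As CPM this was 0.111, 0.479 and 0.0530 in shJUP, against 0.441, 44.1 and 1.52 in shNC, and shNC 1 lay below shJUP 2. POSTN did not pass the filter and had no value in the main test. With no filter, edgeR gave a log2 fold change of -6.10 (SE 1.45) and did not call it (adjusted p = 0.247). POSTN was lower in shJUP in all 3 same-number pairs: the ratio of shNC over shJUP was 3.96 for number 1 (exact 95% counting interval 0.791 to 38.3), 92.0 for number 2 (48.3 to 202) and 28.7 for number 3 (4.74 to 1173). The interval of number 1 includes a ratio of 1, and each ratio compares 2 libraries and not the conditions. The fibroblast marker sum was also highest in shNC 2, at 502 CPM. It was next highest in shJUP 1, at 269 CPM, where POSTN had 2 counts. In shNC 3, where POSTN had 28 counts, the sum was 63.4 CPM. The part of these markers in the level of POSTN was not tested.

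TNC (ENSG00000041982, chr9:115019578-115118257, minus strand) encodes tenascin-C, a large multi-armed protein that interferes with adhesion to fibronectin. Its level was 458, 188 and 162 CPM in shJUP 1, 2 and 3, against 102, 49.6 and 228 CPM in shNC 1, 2 and 3. Every shJUP library lay above shNC 1 and shNC 2, but shNC 3 exceeded 2 of the 3 shJUP libraries. The means were 269 ± 164 CPM across shJUP and 127 ± 92 CPM across shNC (SD, n = 3 each). At a log2 fold change of 1.09 (SE 0.60), TNC missed the edgeR threshold (adjusted p = 0.582), also with the block (1.23, SE 0.55, edgeR adjusted p = 0.294). It was 0.46 without shJUP 1 and 1.82 without shNC 3, and stayed above 0 in all 18 other settings run. TNC was high in shJUP 1, like FN1 and SPARC, but lowest in shNC 2, where those genes were at or near their highest. Of 8 mesothelial markers 5 reached 1 CPM. LRRN4 and CALB2 were highest and lowest in the same libraries as TNC, and the others were not. LRRN4 was at 36.6, 12.0 and 13.4 CPM in shJUP 1, 2 and 3, against 10.4, 6.84 and 15.3 CPM in shNC 1, 2 and 3, and CALB2, at 3 to 43 counts, was also highest in shJUP 1 and lowest in shNC 2. The sum of the 8, most of it CDH2, was 168 to 245 CPM in shJUP and 185 to 237 CPM in shNC. It was highest in shJUP 1 and shNC 3, as TNC was, but lowest in shJUP 3. PDPN was at 22.3, 20.7 and 15.9 CPM in shJUP 1, 2 and 3, against 16.6, 21.2 and 19.3 CPM in shNC 1, 2 and 3. It was thus not low in shNC 2. MSLN (2 to 17 counts), UPK3B and DES were highest in shJUP 2, and ITLN1 was at 0 in every library. The part of these markers in the level of TNC was not tested.

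THBS1 (ENSG00000137801, chr15:39581079-39599466, plus strand) encodes thrombospondin-1, a trimeric protein that binds CD36, CD47 and integrins, inhibits the growth of vessels and activates latent TGF-beta. Its level was 1294, 879 and 1243 CPM in shJUP 1, 2 and 3, against 2469, 282 and 1918 CPM in shNC 1, 2 and 3. The shJUP libraries lay within 1.47-fold of each other and between the controls, with shNC 1 and 3 above all of them and shNC 2 below all of them. The means were 1138 ± 226 CPM across shJUP and 1556 ± 1137 CPM across shNC (SD, n = 3 each), with a log2 fold change of -0.45 (SE 0.65, edgeR adjusted p = 0.836). With the block it was -0.01 (SE 0.52).

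The value for THBS1 depended on shNC 2. Without that library the log2 fold change was -0.95 (SE 0.20, edgeR adjusted p = 0.235). Without both number-2 libraries it was -0.78 (SE 0.14), which missed the threshold in edgeR (adjusted p = 0.091) and passed DESeq2 as lower in shJUP (adjusted p = 3.2e-05). On these 2 against 2 libraries edgeR called 0 members and 0.308% of all tested genes (0.119% higher, 0.189% lower). DESeq2 called 4.26% of all tested genes (1.99% higher, 2.27% lower), and THBS1 was the only member any setting called. THBS1 overlaps THBS1-IT1, THBS1-AS1 and FSIP1, which had at most 42, 26 and 47 counts.

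THBS3 (ENSG00000169231, chr1:155195588-155209051, minus strand) encodes thrombospondin-3, a pentameric relative of cartilage oligomeric matrix protein. Its level was 6.02, 9.53 and 5.09 CPM in shJUP 1, 2 and 3, against 9.60, 13.3 and 9.02 CPM in shNC 1, 2 and 3. The only overlap was between shJUP 2 and shNC 3. In each number the shJUP library was lower, with a ratio of shJUP over shNC of 0.627, 0.716 and 0.564 for numbers 1, 2 and 3. The means were 6.88 ± 2.3 CPM across shJUP and 10.6 ± 2.3 CPM across shNC (SD, n = 3 each), and at a log2 fold change of -0.63 (SE 0.29) THBS3 missed the edgeR threshold (adjusted p = 0.525). With the block the SE was 0.15 around a log2 fold change of -0.66, with adjusted p-values of 0.131 by edgeR and 0.143 by DESeq2, neither past the threshold. THBS3 shares bases with MTX1, which starts on the opposite strand, and with THBS3-AS1 (at most 666 and 27 counts), so reads of these genes cannot be told apart without the strand setting.

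THBS2 (ENSG00000186340, chr6:169215780-169254044, minus strand), the closest relative of THBS1 and like it a trimeric inhibitor of vessel growth, was not detectable at this depth beyond single reads. It had 0, 1 and 0 counts in shJUP 1, 2 and 3, against 0, 0 and 3 counts in shNC 1, 2 and 3. The exact 95% counting interval of a count of 0 reaches 3.69 counts, for counting error only. No fold change is given, since both groups are at or under a floor of 3 counts per library.

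**Figure D2:**
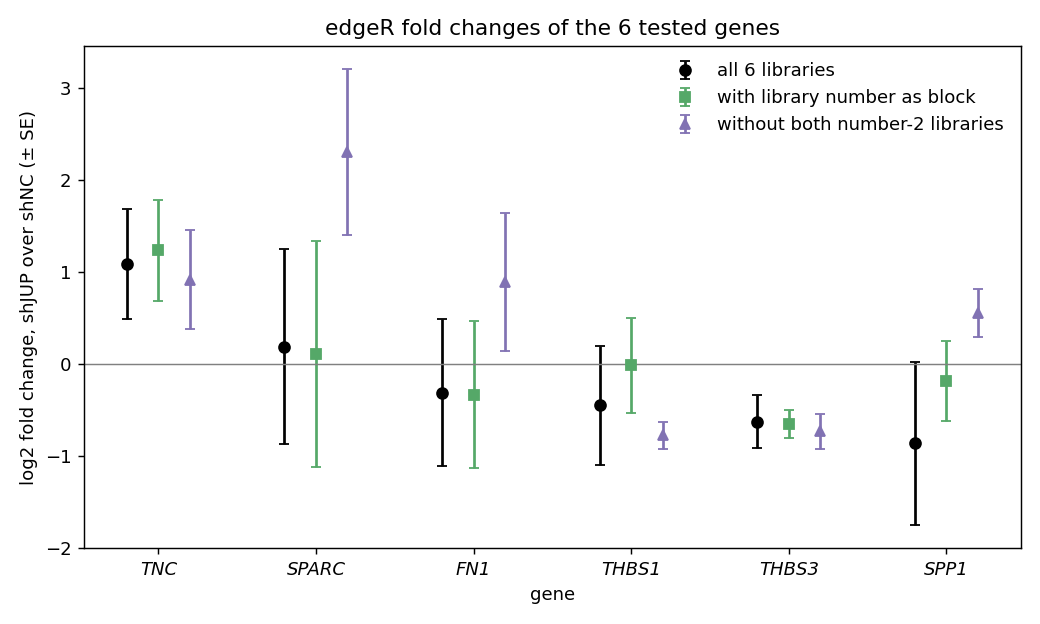
Log2 fold change of the 6 tested genes, shJUP over shNC, from edgeR with all 6 libraries, with the library number as a block, and without both number-2 libraries; bars are ± SE. FN1 and SPP1 lie below 0 with all libraries (-0.31 and -0.87) and above 0 without number 2 (0.88 and 0.55), whereas TNC stays above 0 and THBS3 below 0 in the 3 fits.

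Ratios between libraries of the same number gave opposite signs for most members. The numbers were treated as pairs because same-numbered libraries deviated together: over 15867 genes, the correlation of the deviations was 0.16 for number 1, 0.56 for number 2 and 0.25 for number 3. Deviations were taken from the mean of each group, so they cancel out within a group. The values for numbers 1 and 3 therefore follow in part from number 2 and are no separate support for pairing. Of the shJUP libraries, only shJUP 2 deviated most with the control of its own number. The correlation was 0.19 between shJUP 1 and shNC 3 and 0.44 between shJUP 3 and shNC 1, so the pairing is uncertain. FN1 had a ratio of shJUP over shNC of 4.59 for number 1, but 0.362 for number 2 and 0.395 for number 3. For SPARC the ratio was 12.6 for number 1, 0.208 for number 2 and 0.757 for number 3. TNC was higher in shJUP for number 1 (4.48) and number 2 (3.78) and lower for number 3 (0.707). THBS1 went the other way from SPP1: its ratio was 0.524, 3.12 and 0.648 for numbers 1 to 3, and that of SPP1 was 1.48, 0.352 and 1.44. THBS3 was the only one of the 6 tested members with a ratio below 1 in all 3 pairs, and none had a ratio above 1 in all 3. The exact 95% counting interval left out a ratio of 1 in each of these cases, and covers counting error only. How many of all tested genes keep 1 sign in all 3 pairs was not counted. The signs therefore do not set THBS3 or the other members apart.

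**Figure D3:**
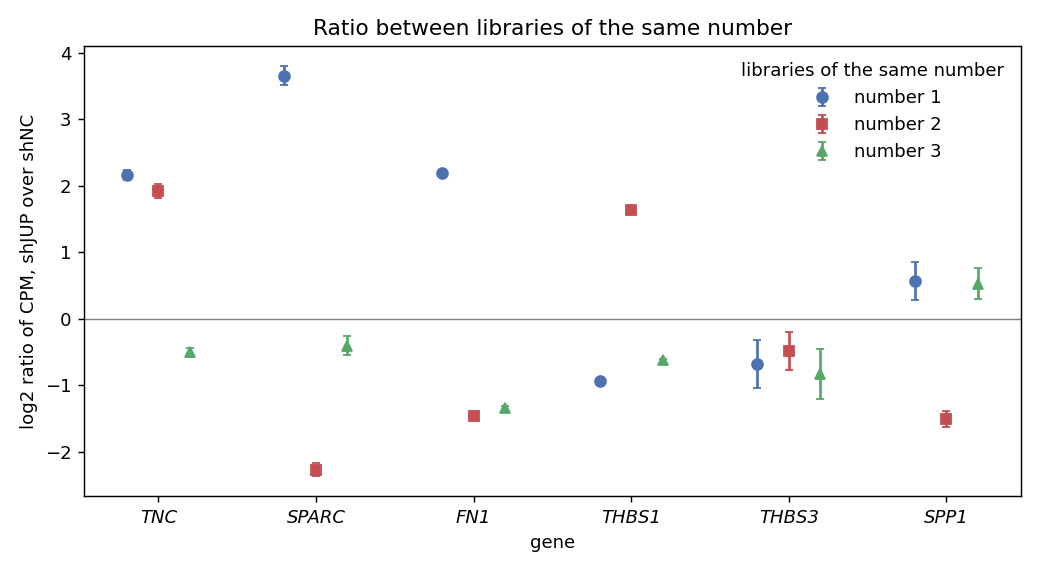
Log2 ratio of CPM, shJUP over shNC, between libraries of the same number for the 6 tested genes; bars are exact 95% counting intervals, which are smaller than the symbol for abundant genes. The 3 points of THBS3 lie below 0, at -0.67, -0.48 and -0.83, and those of the other 5 genes fall on both sides of 0.

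Set side by side, the members' profiles over the libraries fell into unlike shapes. The measure was the root mean square difference of log2(CPM + 0.5), with each gene centred on its own mean over the 6 libraries. The members most like each other were FN1 and SPARC (0.57) and, next, TNC and THBS1 (0.95). The least alike were SPARC and THBS1 (2.23) and THBS1 and SPP1 (2.15). In shNC 2 the centred value was 1.63 for FN1, 1.88 for SPARC and 2.20 for SPP1, but -1.98 for THBS1 and -1.67 for TNC. In shJUP 1 it was 2.01 for SPARC and 1.52 for TNC, but -0.73 for SPP1. Among the 11367 tested genes with a mean of at least 5 CPM, the median ratio of the highest to the lowest library was 1.48. FN1, THBS1, TNC, SPARC and SPP1 each exceeded 99.2% to 99.5% of those genes, and THBS3 (2.62-fold) exceeded 91.8%.

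**Figure D4:**
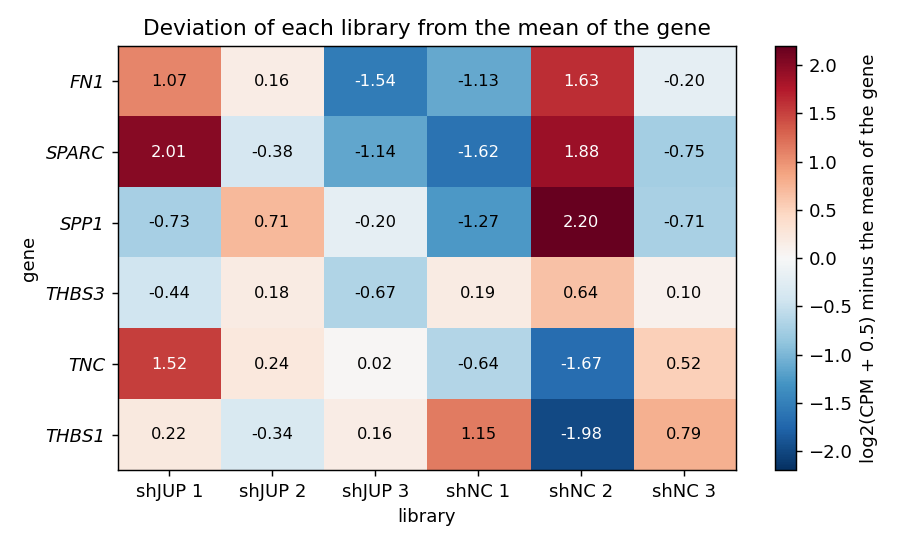
Deviation of each library from the mean of the gene, as log2(CPM + 0.5), for the 6 tested genes, with shJUP libraries left of shNC libraries. The column of shNC 2 holds the highest value of FN1 (1.63), SPP1 (2.20) and THBS3 and the lowest of THBS1 (-1.98) and TNC (-1.67).

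Genes outside the set with the closest profiles were found by the same measure among 11361 genes, 2 for each member. For SPARC the closest was WNT5A, a secreted Wnt ligand (difference 0.30), at 137, 26.2 and 16.8 CPM in shJUP 1, 2 and 3, against 12.1, 104 and 33.5 CPM in shNC 1, 2 and 3. TCF4, a basic helix-loop-helix transcription factor, was closest to FN1 (0.37) and second closest to SPARC (0.65), and GUCY1A2, a guanylate cyclase subunit, was second for FN1 (0.40). TNC was matched by HSPB8, a small heat shock protein (0.27), and IL7R, the interleukin-7 receptor (0.28). THBS1 was matched by SERPINB5, also called maspin (0.34), and by the Wnt antagonist DKK1 (0.44). SPP1 was matched by ASS1, an enzyme of arginine synthesis (0.27), and the adhesion molecule CADM1 (0.30). ASS1 stood at 14.2, 42.2 and 13.0 CPM in shJUP 1, 2 and 3, against 8.77, 81.5 and 10.9 CPM in shNC 1, 2 and 3. THBS3 was closest to MYORG (0.06) and RNF165 (0.07). The likeness describes 6 libraries and carries no test.

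Between genes, levels were compared per kilobase of merged exon length. In shJUP the order by mean was FN1 (129 ± 95 CPM per kb), THBS1 (124 ± 25), SPARC (28.9 ± 33), TNC (27.9 ± 17), SPP1 (10.8 ± 5.7), THBS3 (1.49 ± 0.51), POSTN (0.0393 ± 0.042) and THBS2. In shNC it was THBS1 (170 ± 124 CPM per kb), FN1 (160 ± 154), SPARC (25.3 ± 31), SPP1 (19.8 ± 25), TNC (13.2 ± 9.5), POSTN (2.81 ± 4.6), THBS3 (2.30 ± 0.50) and THBS2 (SD, n = 3 each). The order of the leading genes FN1 and THBS1, and that of SPARC, SPP1 and TNC, was not tested. The genes share their libraries, so the SDs do not measure the spread of a difference between genes. TNC lay above SPP1 in shJUP 1, 2 and 3 (47.5, 19.5 and 16.8 against 6.24, 17.2 and 9.09 CPM per kb). It also did so in shNC 1 and 3, but not in shNC 2 (5.15 against 48.8). With the longest coding transcript as the length, an alternative added after seeing the data, FN1 came before THBS1 in shNC too.

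The balance between the leading pair differed widely between libraries of 1 group. The ratio of FN1 to THBS1, per kb, was 1.61, 1.27 and 0.276 in shJUP 1, 2 and 3, against 0.184, 10.9 and 0.453 in shNC 1, 2 and 3. THBS1 held 28.8%, 35.7% and 65.4% of the summed CPM per kb of the 8 genes in shJUP 1, 2 and 3, against 78.9%, 6.24% and 60.5% in shNC 1, 2 and 3. The share of FN1 was 46.4%, 45.2% and 18.1% in shJUP, against 14.6%, 68.2% and 27.4% in shNC. Together the 8 genes took 0.621%, 0.326% and 0.214% of all counts in shJUP 1, 2 and 3, against 0.347%, 0.648% and 0.383% in shNC 1, 2 and 3. The libraries with the largest sum, shJUP 1 and shNC 2, were again 1 of each group.

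**Figure D5:**
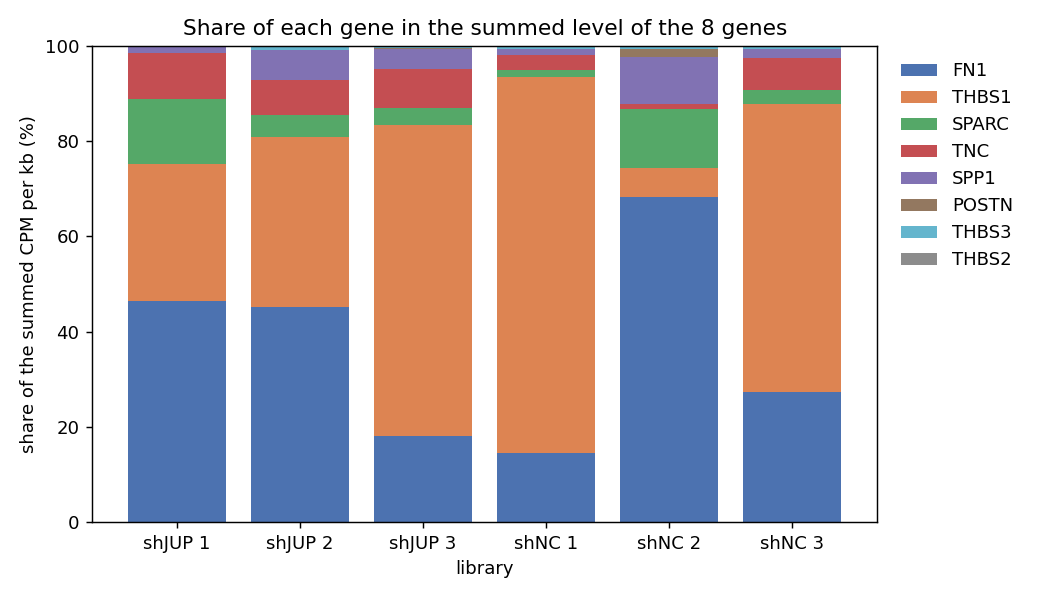
Share of each gene in the summed CPM per kb of the 8 genes, by library, with shJUP libraries left of shNC libraries. The FN1 share runs from 14.6% in shNC 1 to 68.2% in shNC 2, and the THBS1 share is lowest, at 6.24%, in shNC 2.

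The other genes of this biology were read from 5 lists, and with all 6 libraries no gene of any list passed the edgeR test. Without both number-2 libraries edgeR called 3 genes, all of them lower and all from the list of fibronectin assembly and adhesion linkage, where it called 0.308% of all tested genes. DESeq2 on those libraries called 4.26% of all tested genes (1.99% higher, 2.27% lower). In either direction it called 4 other matricellular proteins, 3 integrin subunits, 3 other receptors and 5 genes of assembly and linkage. With all 6 libraries these lists had 26, 10, 13 and 18 tested genes. Of the 5 further tenascins and thrombospondins, TNN, TNR and COMP had at most 2 counts in a library. THBS4, which binds collagen, was at 3.63 ± 0.39 CPM across shJUP and 3.22 ± 1.4 CPM in shNC, and TNXB was at 3.72 ± 1.1 CPM across shJUP and 4.91 ± 1.7 CPM across shNC (SD, n = 3 each). TNXB shares near-identical sequence with a pseudogene and is uncertain. Its log2 fold change of -0.40 was -0.66 without shJUP 2 and -0.07 without shNC 2. Of 33 other matricellular and pericellular proteins 26 were tested, 8 above and 18 below 0, with a median log2 fold change of -0.32 beside -0.01 over all tested genes. That median was -0.04 without shNC 2, -0.13 without shJUP 1, -0.51 without shJUP 2 and -0.51 without both number-2 libraries. DESeq2 called 2 of them lower and 0 higher, TGFBI and SPOCK1, where it called 0.592% of all tested genes lower. TGFBI, an integrin-binding relative of periostin, was at 325 ± 53 CPM across shJUP and 634 ± 87 CPM across shNC (log2 -0.97, SE 0.16, edgeR adjusted p = 0.331, DESeq2 4e-05). SPOCK1, a proteoglycan of the SPARC family, had a log2 fold change of -1.53 (SE 0.36, DESeq2 adjusted p = 0.0031, and 0.064 with the block). IGFBP7 (log2 -1.17, SE 0.44) and EFEMP1 (log2 -1.01, SE 0.45), secreted glycoproteins, passed neither test with all 6 libraries. EFEMP1 was at -0.47 without shNC 1, and without both number-2 libraries it was at -1.66 and passed DESeq2 (adjusted p = 2.5e-06; edgeR 0.092). IGFBP7 was at -1.74 without both number-2 libraries (adjusted p = 0.052 by DESeq2 and 0.1 by edgeR).

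Among receptors and adhesion partners, 10 of 11 integrin subunits were tested, 2 above and 8 below 0, with a median log2 fold change of -0.28. Neither edgeR nor DESeq2 called any of them, and DESeq2 with the block called 2 lower, where it called 2.44% of all tested genes lower. These were ITGAV, the alpha chain of receptors for fibronectin, osteopontin and periostin, and its partner ITGB3. ITGAV was at 261, 250 and 243 CPM in shJUP 1, 2 and 3, against 433, 288 and 403 CPM in shNC 1, 2 and 3 (log2 -0.57, SE 0.16, edgeR adjusted p = 0.399, DESeq2 with the block 0.0058). Each shJUP library lay below each control. ITGB3 was at 98.2 ± 38 CPM across shJUP and 156 ± 25 CPM across shNC (DESeq2 with the block, adjusted p = 0.016). ITGA5, the alpha chain of the classical fibronectin receptor, was at 183 ± 68 CPM across shJUP and 273 ± 44 CPM across shNC (log2 -0.58, SE 0.26, edgeR adjusted p = 0.524). It was at -0.91 without shJUP 2 and -0.38 without shJUP 3. Without both number-2 libraries it was at -1.03, which missed the edgeR threshold (adjusted p = 0.052) and passed DESeq2 (adjusted p = 1.8e-08). ITGAV also passed DESeq2 there (log2 -0.72, adjusted p = 1.5e-06), and ITGB3 did not (log2 -0.77, adjusted p = 0.46). ITGB3 was at -0.38 without shJUP 3. ITGB5 had a log2 fold change of -0.29 (SE 0.12).

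Of 16 other receptors 13 were tested, 6 above and 7 below 0 (median log2 -0.05, and from -0.12 to 0.08 with 1 library left out). CD44, the osteopontin receptor, was at 1035 ± 50 CPM across shJUP and 877 ± 64 CPM across shNC (log2 0.24, SE 0.10, edgeR adjusted p = 0.504), and LRP8, a receptor of the LDL receptor family, had a log2 fold change of 0.34 (SE 0.13). PTPRB, a receptor phosphatase, stood in this list although its binding to these proteins is uncertain. DESeq2 called PTPRB lower (log2 -0.90, adjusted p = 0.0027), where it called 0.592% of all tested genes lower. With the block DESeq2 called 2 lower, where it called 2.44% of all tested genes lower. These were PTPRB (adjusted p = 7.4e-07) and CACNA2D1, a calcium channel subunit that binds thrombospondins (log2 -0.79, adjusted p = 9e-04). The main edgeR test called neither PTPRB (adjusted p = 0.331) nor CACNA2D1 (adjusted p = 0.508). Of 19 genes of fibronectin assembly and adhesion linkage 18 were tested, 7 above and 11 below 0 (median log2 -0.08). DESeq2 called 2 lower, BMP1 and FBN1, where it called 0.592% of all tested genes lower. With the block it called 4 lower, where it called 2.44% of all tested genes lower: BMP1, FBN1, LOX (adjusted p = 0.048) and TGM2 (log2 -0.45, adjusted p = 0.0083), a crosslinking enzyme named here after its values were seen. LOX, which crosslinks collagen and elastin, had a log2 fold change of -1.07 (SE 0.33, edgeR adjusted p = 0.42). The 3 genes that edgeR called without both number-2 libraries were LOX (log2 -1.58, adjusted p = 0.042), FBN1 (log2 -0.94, adjusted p = 0.048) and BMP1 (log2 -0.92, adjusted p = 0.049). BMP1, a protease that trims procollagens and other matrix proteins, was at 69.2 ± 6.4 CPM across shJUP and 122 ± 10 CPM across shNC (log2 -0.81, SE 0.12, edgeR adjusted p = 0.324, DESeq2 6.1e-06). FBN1, the microfibril protein fibrillin-1, had a log2 fold change of -0.78 (SE 0.16, DESeq2 adjusted p = 0.002). LIMS1, an adaptor of integrin-linked kinase, was at -0.28 (SE 0.13) and passed in neither tool with all 6 libraries. Without both number-2 libraries it was at -0.43 and passed DESeq2 (adjusted p = 0.02; edgeR 0.142).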

How the data were processed

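The authors deposited 1 table of unscaled expected counts by Ensembl gene. The tools named, without a role, per the submitters' processing notes are STAR 2.7.9a, RSEM 1.3.3, edgeR 3.32.1 and DESeq2 1.26.0. Build, annotation and strand setting: not given in the sources used here. Per the labels' protocols, libraries came from oligo(dT)-selected RNA, and FPKM were made with Cuffdiff; such values were not used here. Of 60695 rows, 31 named no gene and were left out. Counts were rounded to whole numbers. The main test was edgeR 4.0.16 in R 4.3.3: filterByExpr (15867 genes), TMM, quasi-likelihood test, two-sided, Benjamini-Hochberg over all genes, threshold 0.05. Each SE was obtained by dividing the size of the log2 fold change by the root of its F statistic. DESeq2 1.42.0, limma-voom (limma 3.58.1), other scalings and filters, a block for the library number, and left-out libraries were alternatives. Steps were tested on simulated data. Library numbers were taken as pairs since same-numbered libraries deviated together (correlations 0.16, 0.56 and 0.25). Deviations from the group mean cancel out within a group, so the values for numbers 1 and 3 follow in part from number 2. The pairing is uncertain, since shJUP 3 deviated more with shNC 1 (0.44) and shJUP 1 slightly more with shNC 3 (0.19). p-values measure the spread between these cultures, and counting intervals cover counting error only. Lengths, locations and overlaps come from GENCODE 29 (GRCh38), matched by Ensembl ID. Members and lists were chosen with earlier results of these data known. Named genes were all members, JUP, up to 4 genes per list with the smallest edgeR p, and the 2 closest profiles per tested member averaging 5 CPM or more and ranging 2-fold or more.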

Additional observations from a re-analysis of the deposited data

How the results depend on the processing

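The number of members called was 0, and 1 (THBS1) with DESeq2 without both number-2 libraries; it was 0 in the other 17 of 18 settings. The number of genes called was 0 in the main test, 5 without the filter, 204 with DESeq2, 127 with edgeR's likelihood-ratio test, 1 with the replicate block, 696 with the replicate block in DESeq2, 49 without both number-2 libraries and 678 without them in DESeq2, and 0 with each library left out. The cause was not tested. With 1 library left out, log2 fold changes ran from -1.01 to 0.84 for FN1, from -1.33 to 1.94 for SPARC, from -0.95 to 0.0484 for THBS1, from -1.37 to 1.05 for SPP1 and from -0.0195 to 0.59 for THBS4, so each of these changed sign, and none passed the threshold. TNC ran from 0.46 to 1.82 and THBS3 from -0.94 to -0.44, with 1 sign each. Without both number-2 libraries FN1 turned to 0.88 (0.88 by DESeq2) and SPP1 to 0.55 (0.55 by DESeq2), and THBS1 turned to 0.0267 with limma-voom. The replicate block changed the call of no member. FN1, THBS1, TNC, SPARC and SPP1 had at least 177 counts in every library and varied by 8.75-fold to 12.6-fold between libraries. THBS2 had at most 3 counts in a library, and POSTN had 1 to 28 counts outside shNC 2. Whether more depth would change these results was not tested.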
